A study of Mus musculus with 2 samples.

Results

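Hair colour in the mouse is made by melanocytes of the hair bulb, which build pigment only while the hair grows, and 10 genes of this system were followed here. The genes were Tyr, Tyrp1, Dct, Pmel (named Si on the array), Mlana, Slc45a2, Mitf, Kit, Mc1r and a, the agouti gene also called Asip. They were chosen by the gene name in the scanner files and were represented by 12 probes in 57 spots, of 27576 genes, 41165 probes and 43379 non-control spots in all. Full-thickness dorsal skin of male C3H/HeN mice, a strain with a wild-type agouti coat, was measured at 61 days of age. The back had been depilated 5 days earlier to start anagen, when hair grows. On day 4 the skin received a subcutaneous injection of FGF18 (1 µg), a secreted fibroblast growth factor, or of phosphate-buffered saline (PBS), and it was taken 24 h later. Each group was 1 single-colour Agilent array of poly(A) RNA. The design text describes pooled RNA and the extraction protocol separate extraction, and 3 mice are named without saying whether this is per group. The PBS sample is titled telogen, the resting phase, although its source name and hair cycle entry give anagen. With 1 array per group no difference has a replicate check, no test was made, and precision is limited by the number of arrays.

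In melanocytes, α-MSH made from Pomc activates the receptor Mc1r, and agouti protein, secreted by the dermal papilla, blocks it and switches pigment from black eumelanin to yellow pheomelanin. Both signals act on the transcription factor MITF, which drives the genes of the pigment enzymes and of the melanosome, the organelle in which melanin is laid down. The receptor tyrosine kinase Kit and its ligand support melanocyte survival, migration and growth.

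Tyr, Dct, Tyrp1 and Pmel had higher signals on the FGF18 array, by 1.61-, 1.34-, 1.31- and 1.21-fold. For these folds each array was scaled to its 75th percentile. The 4 genes were grouped after their values were seen, and Mlana, like Pmel a gene of melanosome structure, was not among them. The other 6 genes, Mlana, a, Mitf, Kit, Mc1r and Slc45a2, lay between 1.00-fold higher and 1.15-fold lower. No member reached the 2-fold difference used as the threshold, against 2.52% of the 16611 genes measured on both arrays (1.53% higher and 0.993% lower). At 1.5-fold, 1 member (Tyr) was higher and 0 were lower, against 3.78% and 4.91% of all genes (8.69% in either direction). At 1.2-fold, a threshold chosen after the values were seen, 4 members were higher and 0 lower, against 11.3% and 21% of all genes (32.3% in either direction). The median log2 ratio of the 10 members (FGF18 minus PBS) was -0.03 and that of all genes -0.07. Under this scaling 36.8% of all genes were above 0 and 63.2% below it. In whole skin, more RNA per melanocyte and more melanocytes cannot be told apart.

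Markers of other skin cells also differed between the arrays. All 6 fibroblast markers were below 0, against 63.2% of all genes. The median log2 ratio of these markers was -0.47, from Col1a2, a collagen gene, at -0.75 to Pdgfra, a growth factor receptor gene, at -0.20. The brightest probes of the collagen genes Col1a1, Col1a2 and Col3a1 were at -0.31, -0.52 and -0.16, against gene means of -0.75, -0.75 and -0.60. A summed signal adds up each gene's log-scale mean over its measured probes. Unscaled, it was 112875 with FGF18 and 126181 with PBS, a log2 ratio of -0.35 after scaling. Of 10 hair matrix and shaft keratinocyte markers, 3 were past 2-fold lower with FGF18, against 0.993% of all genes. These were the hair keratin genes Krt31 (-1.05), Krt34 (-2.44) and Krt82 (-1.32). The median of that list was -0.51, with 3 genes above 0 and 7 below (63.2% of all genes were below). Its highest gene was Krt35 at 0.06. Its unscaled summed signal was 96034 with FGF18 and 86551 with PBS, a log2 ratio of -0.04 after scaling. Most of that sum was Krt35 (72400 and 60900). No marker of either list was at background. The part of these differences in the ratios of the pigment genes was not tested.

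The arrays gave the tissue that the labels name. All 6 basal keratinocyte markers, all 6 fibroblast markers and all 8 melanocyte markers were well above background on both arrays. Of the non-control spots, 62.4% and 61.5% were well above background on the FGF18 and PBS arrays and 0 were saturated. Scaling divided each FGF18-to-PBS signal ratio by 1.14, the quotient of the 75th percentiles (1020 and 897). The lowest signals called well above background were 23.3 and 24.2. Spot-to-spot error was read from probes printed as 10 spots: the log2 ratios of their spots had SDs with a median of 0.19 for 24 dim probes (mean signal under 100), 0.07 for 63 middle probes and 0.03 for 95 bright probes (1000 or more). It covers the array surface only, not mice, pooling or labelling.

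The promoters of the pigment enzymes are shown because MITF is known for binding an element of this gene family, the M-box, around the letters CATGTG. Windows of 300 bases, from 250 before to 50 after the RefSeq start (GRCm38.p6), were given for 7 of the 10 members. In these the core TCATGTG was sought on both strands (CACATGA on the other), with every match in capitals. The core with the 2 bases on either side that it has in the Tyr window, AGTCATGTGCT, was sought as a longer motif, so Tyr holds it by construction and each match of it is also one of the core. The window of Tyr is chr7:87493463-87493762 on the minus strand, that of Tyrp1 chr4:80833963-80834262 on the plus strand, that of Dct chr14:118052197-118052496 on the minus strand and that of Mc1r chr8:123406832-123407131 on the plus strand.
Tyr: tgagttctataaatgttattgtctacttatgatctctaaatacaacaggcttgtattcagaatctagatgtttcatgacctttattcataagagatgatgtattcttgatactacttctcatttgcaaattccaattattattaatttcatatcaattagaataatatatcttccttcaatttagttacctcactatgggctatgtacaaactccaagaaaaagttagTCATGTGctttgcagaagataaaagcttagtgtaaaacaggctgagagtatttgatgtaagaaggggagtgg
Tyrp1: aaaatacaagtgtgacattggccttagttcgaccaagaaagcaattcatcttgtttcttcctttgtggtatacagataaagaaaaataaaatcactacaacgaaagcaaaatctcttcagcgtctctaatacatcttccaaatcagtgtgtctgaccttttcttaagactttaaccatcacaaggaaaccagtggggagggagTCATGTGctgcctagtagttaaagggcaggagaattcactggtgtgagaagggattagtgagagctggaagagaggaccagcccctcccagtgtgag
Dct: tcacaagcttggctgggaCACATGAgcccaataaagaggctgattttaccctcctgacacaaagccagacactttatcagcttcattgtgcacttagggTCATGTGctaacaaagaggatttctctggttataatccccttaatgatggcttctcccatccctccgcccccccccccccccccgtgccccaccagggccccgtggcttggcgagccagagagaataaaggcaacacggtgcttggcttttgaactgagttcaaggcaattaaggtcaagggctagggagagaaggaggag
Mc1r: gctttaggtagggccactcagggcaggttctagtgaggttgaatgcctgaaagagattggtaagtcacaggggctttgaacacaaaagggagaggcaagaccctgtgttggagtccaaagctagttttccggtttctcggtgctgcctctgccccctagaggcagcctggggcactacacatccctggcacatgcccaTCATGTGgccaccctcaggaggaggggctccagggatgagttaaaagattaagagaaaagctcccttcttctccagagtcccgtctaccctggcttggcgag

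The core began 22 bases before the start in Tyr and 47 bases before it in Tyrp1, in both within the full AGTCATGTGCT. Dct held the core at 151 bases before the start and, on the other strand, at 232, and Mc1r at 52. The windows of Kit (2), Mitf (3) and a (1) did not hold these letters. Of all 32851 windows, 3.77% held the core, and 7 windows (0.0213%) held the full motif. Besides Tyr and Tyrp1, 1 other gene with the full motif was measured on both arrays, C1qb, a subunit of complement C1q, with a log2 ratio of -0.22. Over genes at large the median log2 ratio was -0.06 for the 331 measured genes with the core and -0.06 for the 10962 without it. Among the members, Tyr, Tyrp1 and Dct had the core and were higher on the FGF18 array, while Mc1r had it too and stood at -0.14. A match describes the letters and is no binding site or cause.

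Tyr encodes tyrosinase, the enzyme that carries out the first and rate-limiting step of melanin synthesis. Its 1 probe was dim, and the processed signal over 9 spots of the FGF18 array was 41.4 at the lowest, 50.3 at the median and 71.9 at the highest. Over 10 spots of the PBS array it was 21.3, 28.65 and 35.4, so every FGF18 spot lay above every PBS spot. The remaining FGF18 spot, at 199, carried an outlier mark and was left out. On the PBS array only 6 of the 10 spots were well above background, and the PBS mean of 28.2 was close to the lowest signal so called (24.2). The scaled log2 ratio was 0.69 ± 0.33 (SD over 9 spot pairs), from 0.13 to 1.27, and 2.8% of all genes had a ratio at least as high. With normexp background correction, whose added offset compresses dim signals, it was 0.11.

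Tyrp1 encodes tyrosinase-related protein 1, which acts late in eumelanin synthesis and stabilises tyrosinase. Its spots ran from 3980 over a median of 4285 to 4540 on the FGF18 array and from 2680 over 2885 to 3030 on the PBS array, 10 spots each. The arrays did not overlap. The log2 ratio of 0.39 ± 0.02 (SD over 10 spot pairs) was the tightest of the members with several spots, with every pair between 0.35 and 0.41, and 6.94% of all genes had a ratio at least as high.

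Dct encodes dopachrome tautomerase, also called tyrosinase-related protein 2, which converts dopachrome on the way to eumelanin and is made already in melanoblasts. Both of its probes, of 1 spot each, were higher on the FGF18 array. The first gave 53100 on the FGF18 and 36800 on the PBS array, a scaled log2 ratio of 0.34, and the second 13000 and 8120, a ratio of 0.49. As a gene Dct was at 0.42, and 6.3% of all genes had a ratio at least as high.

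**Figure D1:**
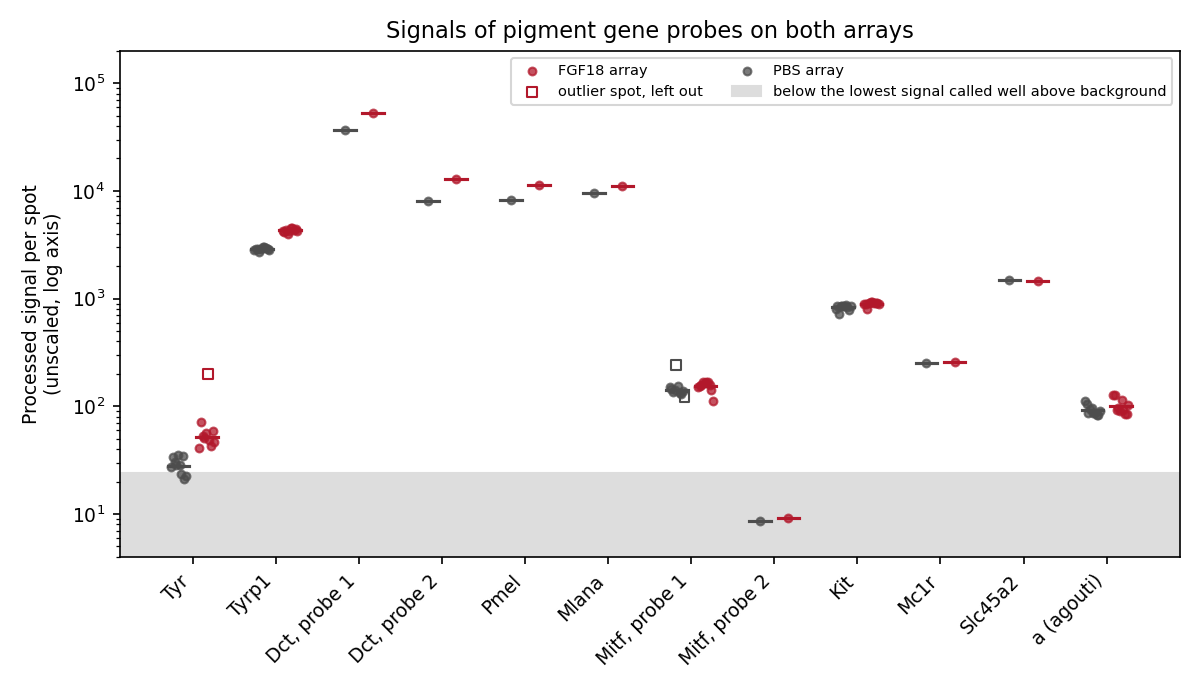
Processed signal of every spot of the 12 probes on the FGF18 and PBS arrays (unscaled, log axis), with lines at the mean of each probe on the log scale, open squares for outlier spots left out, and shading below the lowest signal called well above background. The FGF18 spots of Tyr, Tyrp1, Dct, Pmel, Mlana and Mc1r lie above the PBS spots before scaling, that of Slc45a2 lies below, and those of Kit, the measured Mitf probe and a overlap, and probe levels of different genes cannot be compared.

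Pmel encodes the protein whose fibrils form the scaffold on which melanin is deposited in the melanosome. Its single spot read 11300 with FGF18 and 8180 with PBS, a log2 ratio of 0.28, and 10.5% of all genes had a ratio at least as high. Mlana, which encodes MART-1, a melanosomal protein that binds Pmel, read 11000 and 9650. Its log2 ratio was 0.00, which is 0.08 above the median of all genes. Slc45a2, a membrane transporter needed for normal melanosomal pH and tyrosinase activity, read 1460 and 1480 and had the lowest ratio of the members, -0.21, with 71.5% of all genes at or above it.

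Mitf had 1 probe of 10 spots that was measured and another that was not well above background on either array (9.18 and 8.57). Which isoforms each probe reads was not analysed here. The spots of the measured probe ran from 113 over a median of 158.5 to 169 on the FGF18 array, and from 131 over 141 to 155 over 8 spots of the PBS array. A further pair of PBS spots, at 240 and 122, carried outlier marks and was left out. The arrays overlapped, and the log2 ratio was -0.06, from the means of 10 FGF18 spots and 8 PBS spots. The SD was taken over the 8 spot pairs without an outlier mark and was 0.12, with 4 pairs above 0. The distance of the Mitf ratio from the median of all genes was 0.01.

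Kit had spots from 808 over a median of 904.5 to 936 on the FGF18 array and from 720 over 847.5 to 876 on the PBS array, 10 each, and the arrays overlapped. The log2 ratio was -0.07 ± 0.04 (SD over 10 spot pairs), again 0.01 from the median of all genes. Kit is also made by mast cells. Of 10 mast cell markers, 8 were measured on both arrays, with a median log2 ratio of -0.09 and an unscaled summed signal of 10110 with FGF18 and 9422 with PBS, a log2 ratio of -0.08 after scaling. Of the 8, 4 were above and 4 below 0 (36.8% of all genes were above). The mast cell protease genes Cpa3, Mcpt4, Tpsb2 and Cma1 stood at -0.32, -0.20, -0.35 and 0.11 (named after their values were seen). Mrgprb1 was the lowest marker at -0.39. Hdc, the histamine-forming decarboxylase, at 1.48 was the 1 marker past 2-fold, against 1.53% of all genes past 2-fold higher. Ms4a2, a chain of the IgE receptor, was not well above background on either array. The part of mast cells in the Kit signal was not tested.

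Mc1r, the α-MSH receptor, had a single spot at 259 with FGF18 and 251 with PBS. Its log2 ratio was -0.14, which lay 0.07 below the median of all genes. The agouti gene had spots from 84.4 over a median of 95.05 to 127 on the FGF18 array and from 82.5 over 89.05 to 111 on the PBS array, 10 each, with overlap. Its log2 ratio was -0.06 ± 0.13 (SD over 10 spot pairs), 0.01 from the median of all genes. Markers of the dermal papilla, where agouti is made, were measured for 9 of 10 genes, with a median of -0.04 and an unscaled summed signal of 7622 and 7239, a log2 ratio of -0.11 after scaling. None of these was past 2-fold, against 2.52% of all genes. The highest was Fgf7 at 0.54 and the lowest Lef1 at -0.34, and Rspo3 was not well above background on either array.

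**Figure D2:**
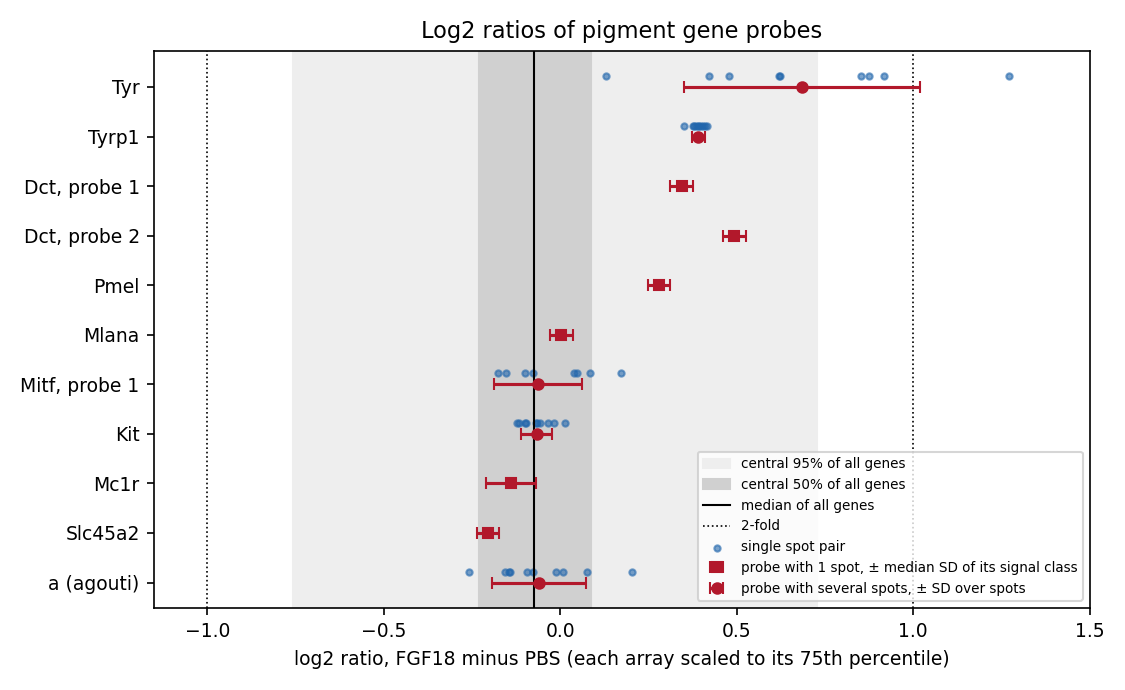
Scaled log2 ratio, FGF18 minus PBS, of the 11 probes measured on both arrays, with single spot pairs as small points and bars of ± 1 SD over spots or, for probes of 1 spot, the median SD of their signal class; shading shows the central 50% and 95% of all genes. Tyr, Tyrp1, both Dct probes and Pmel lie right of the central 50% (-0.23 to 0.09), and all members lie within the central 95% (-0.76 to 0.73). The bars leave out the scanner software's own error of each spot.

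Other genes of the pigment pathway were followed in 4 lists by role, 60 genes of which 54 were measured on both arrays. None was past 2-fold in either direction, against 2.52% of all genes, and none past 1.5-fold, against 8.69%. Their median log2 ratio was 0.01 against -0.07 for all genes. Among melanosomal proteins, 8 of 10 genes were measured, with a median of 0.04. Trpm1, a cation channel gene that MITF activates, was highest at 0.29 (signals of 3720 on the FGF18 and 2670 on the PBS array). Oca2, which encodes a melanosomal chloride channel, stood at 0.26 (709 and 521). Slc24a5, an ion exchanger of pigment cells, was at 0.03, Gpr143, a melanosomal receptor, at -0.13 with signals near 50 (51.9 and 50.1), and the copper transporter gene Atp7a, lowest in the list, at -0.25 as the mean of probes at -0.61 and 0.11.

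The transcription factors of melanocytes had a median of -0.13 over 12 of 13 genes, 1 above and 11 below 0 (63.2% of all genes were below), and 4 of the 12 were above the median of all genes. Sox10, which activates Mitf, was at -0.08 by 1 probe (457 and 426), while its other probe was not well above background. Pax3, another activator of Mitf, was not well above background on either array. Irf4, which acts with MITF on Tyr, was highest at 0.17, and Lef1, a Wnt effector that is also a gene of the hair matrix, lowest at -0.34. Sox5, named after its values were seen, was at -0.07 by the 1 of its 4 probes measured on both arrays (84.3 and 77.8). Another Sox5 probe was well above background on the PBS array alone, at 4.85 with FGF18 and 78.7 with PBS.

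Of the ligands, receptors and genes of pigment-type switching, 12 of 15 were measured, with a median of 0.04. Of these, 6 were above and 6 below 0 (36.8% of all genes were above), and 8 were above the median of all genes. Corin, which encodes a protease of the dermal papilla that dampens agouti action, was highest at 0.49, with signals of 606 and 380 (1.40-fold). Pomc, the precursor of α-MSH, was at 0.34, at dim signals of 75.2 and 52.3. Atrn, whose product attractin is required for agouti signalling, was at 0.18, with 3 probes between -0.05 and 0.36. Kitl, the ligand of Kit, was at -0.02 (1284 and 1142). Ednrb, the endothelin receptor of melanoblasts, was lowest at -0.57, with probes at -0.76 and -0.38. Its ligand gene Edn3 was well above background only with FGF18, by 1 probe, and 1.10-fold higher there. That fold is the plain scaled ratio of dim signals (31.7 and 25.3) and no lower bound. The other Edn3 probe was well above background on neither array (23.4 and 18.1). Hgf, a melanocyte growth factor that was not among the genes set for naming, was at least 1.25-fold higher with FGF18. This rests on the 1 of its 4 probes that was well above background there (34.5 with FGF18 and 5.64 with PBS). The other Hgf probes were well above background on neither array.

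Genes of melanosome biogenesis and transport were all measured, 22 of 22, with a median of 0.05, 15 above 0 (36.8% of all genes were above) and 18 above the median of all genes. Bloc1s3, a subunit of the complex that sorts cargo to melanosomes, was highest at 0.52 (293 and 180). Among the other subunits of that complex, Bloc1s2, Bloc1s5 and Bloc1s6 were at 0.38, 0.37 and 0.30, Dtnbp1 was at 0.04, and Bloc1s1 and Bloc1s4 were at -0.22 and -0.19. Bloc1s5 was the mean of a brighter probe at 0.17 and a dim probe at 0.57. Bloc1s6 was likewise the mean of a brighter probe at 0.19 and a dim probe at 0.41. Of the genes that carry melanosomes to the cell periphery, Rab27a was at 0.45, the motor gene Myo5a at 0.01 and the linker gene Mlph lowest at -0.44 (158 and 189). Rab38, a small GTPase in the delivery of tyrosinase and Tyrp1, was at -0.35 (926 and 1040). These genes other than the highest, the lowest and Rab38 were named after their values were seen.

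**Figure D3:**
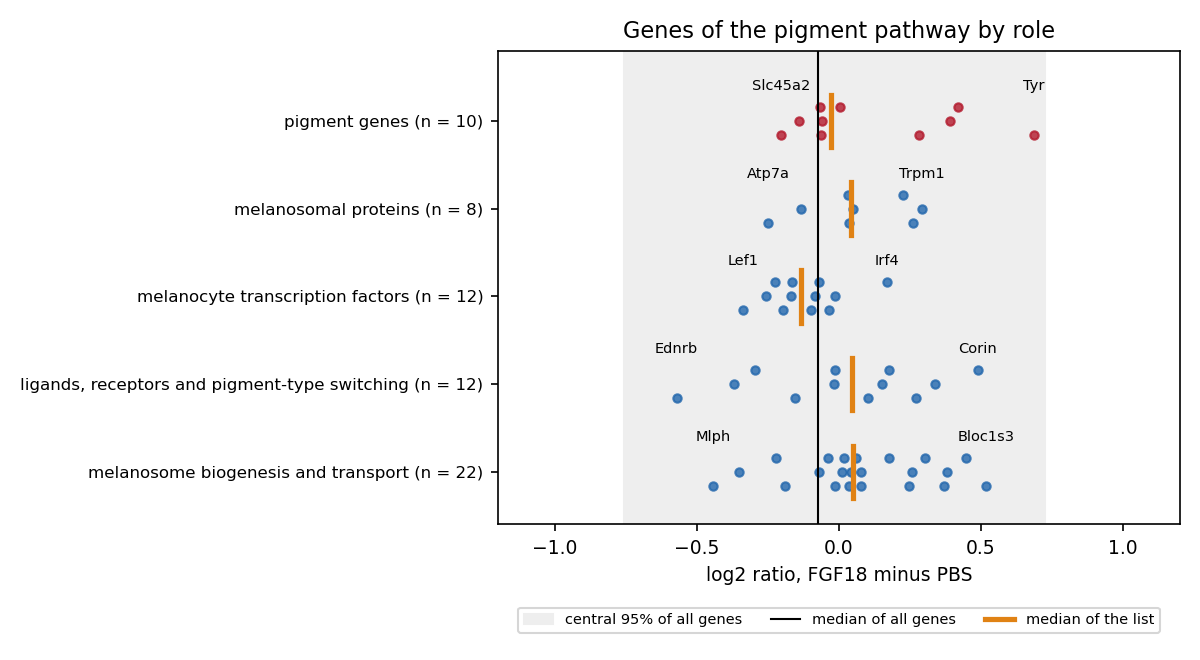
Scaled log2 ratio, FGF18 minus PBS, of the 10 pigment genes and of the measured genes of 4 pathway lists, 1 point per gene, with the median of each list, the median of all genes and the central 95% of all genes; the lowest and highest gene of each list are named. The list medians lie between -0.13 and 0.05, and no point reaches 2-fold.

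A scaling by a constant moves all members together, while quantile, loess and normexp moved them by unlike amounts. The members' position against the median of all genes is therefore given beside their position against 0. Tyr, Tyrp1, Dct and Pmel were above 0 and above the median of all genes in all 14 alternative settings of scaling, background correction, filter and probe choice (13 for Tyr, which had no value in the other), with log2 ratios of 0.11 to 0.88, 0.39 to 0.58, 0.34 to 0.60 and 0.28 to 0.47. These settings were not independent checks. A scaling by a constant cannot change a gene's distance from that median. Most filter and probe choices leave the ratio of a gene with 1 probe as it was. Slc45a2 was below the median of all genes in all 14, at -0.21 to -0.02. Mc1r was below it in 13 of 14. The directions of Mitf, Kit, Mc1r and a against 0 changed with the scaling: they were above 0 in 4, 3 and 1 of 14 settings and, for a, in 5 of 13. Scaling to 7 spike-in probes, an alternative chosen after seeing the data, would add 0.82 to every log2 ratio and place Tyr, Dct (1.23), Tyrp1 (1.21) and Pmel past 2-fold. With that scaling 16.1% of all genes were past 2-fold higher and their median was 0.74. The labels do not state how spike-in and RNA amounts were matched.

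**Figure D4:**
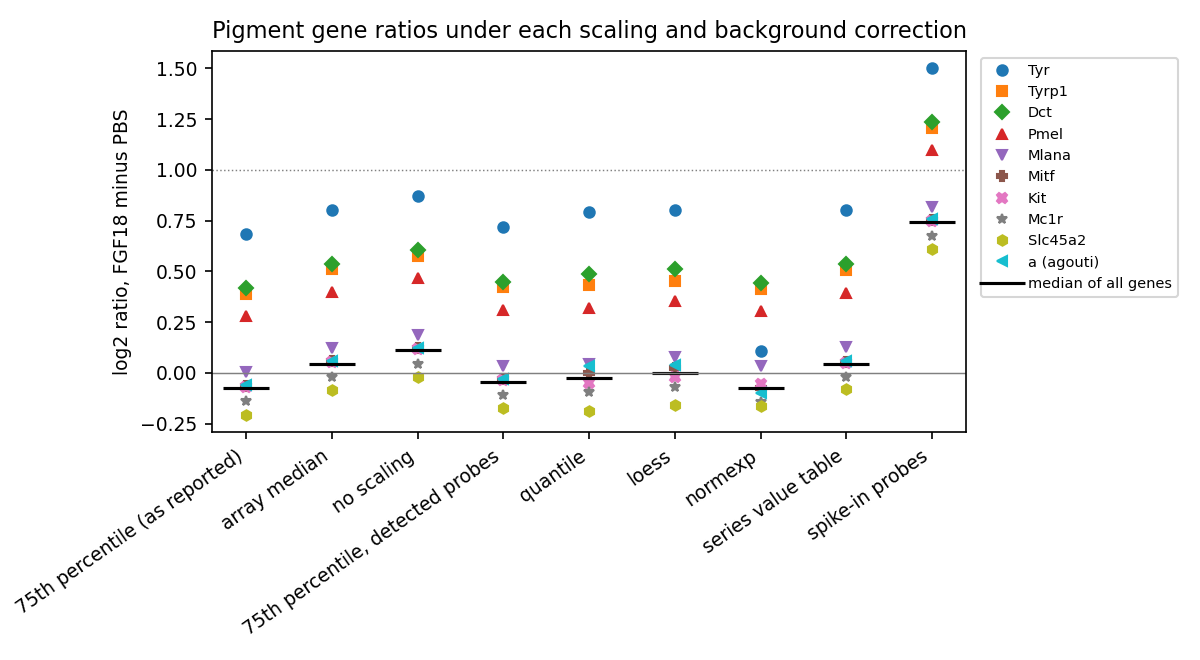
Log2 ratio, FGF18 minus PBS, of each pigment gene under 9 scalings and background corrections, with the median of all genes as a black bar, a line at 0 and a dotted line at 2-fold. Tyr, Dct, Tyrp1 and Pmel lie above the other 6 genes in every setting shown, Tyr drops to 0.11 with normexp, and all values move up together with spike-in scaling.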

How the data were processed

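Agilent Feature Extraction 9.5.3.1 read the arrays (design 014868, protocol GE1-v5_95_Feb07), per the file headers. The deposited intensity values used were the processed signal, background-subtracted and detrended, and, for 1 alternative, spot mean and local background. The authors' series value table holds a ratio on a linear scale: each column was the processed signal over that array's median spot (83.8 and 80.0, within 0.0078 on the log2 scale), with column medians of 1.00 and 0.999. No source used here gives a scaling between arrays.

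From log2 of the processed signal each array's 75th percentile was subtracted. Control and outlier spots were left out and spots of a probe averaged. Probes with a share of spots well above background of 0.5 or more counted as measured, and probes of a gene were averaged. Where 1 array alone measured a gene, the other array's value was replaced by its lowest signal well above background where that was higher. Only a fold with a replaced value is a lower bound. Genes other than the members were named through RefSeq's table of GRCm38.p6: 23368 probes by accession, 6732 by symbol and 2907 by synonym, and 8158 kept the file's name. The files name no genome build, so coordinates are those of the RefSeq promoter table. Python 3.11.15, pandas 2.3.3 and limma 3.58.1 (normexp with an offset of 50, quantile, loess) were used. The ratio code was run on simulated data with known changes of at least 2-fold in probes that were not dim. That run does not cover dim probes, the background filter or differences as small as those of the members. Groups were taken from the source names, and 0 columns were left unmapped.

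Members, lists, tests and alternatives were chosen with earlier results of these data known. Named were all members, in each list the genes past 2-fold or else the highest and lowest, and 12 genes in every case. The cell type marker lists not given in the report had medians of 0.01 (Schwann cell), -0.06 (basal keratinocyte) and 0.27 (melanocyte, which holds 6 of the members).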

Additional observations from a re-analysis of the deposited data

How the results depend on the processing

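No paired analysis was possible because each group is 1 array, and for the same reason no replicate could be left out. Under 14 alternatives of scaling, background correction, filter and probe choice the count of members past 2-fold was 0, and it was 1 at a threshold of 1.5 and 4 with spike-in scaling, which was chosen after seeing the data. The members' median of -0.03 became 0.0913 with median scaling, 0.16 without scaling, 0.0612 with loess, 0.0931 with the series value table and 0.79 with spike-in scaling. The pathway count of 0 became 1 without a filter on dim probes (Sox5, lower). It became 2 when probes well above background on 1 array alone also counted (Hgf higher and Sox5 lower). Sox5 was measured on both arrays by another probe, and a probe of the PBS array alone entered its mean there. The pathway count became 13, all higher, with spike-in scaling, which called 16.1% of all genes higher. Over all genes the count past 2-fold was 419, of which 60.6% were higher. It was 235 with normexp, 249 with signals over 100, 997 with probes of 1 array also counted and 1690 without a filter. With spike-in scaling it was 2705, and at thresholds of 1.5-fold and 3-fold it was 1443 and 161. The share higher was 72.8% with median scaling, 78.5% without scaling, 73.2% with normexp, 72.7% with the series value table and 99.0% with spike-in scaling, but 46.6% without a filter (787 higher and 903 lower) and 43.5% at 1.5-fold (628 higher and 815 lower). Tyr has no value where every spot had to be well above background or every signal over 100, and a none with signals over 100. Signals near the floor limit what Tyr, Pomc and Gpr143 can show.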
